A study of Rattus norvegicus with 16 samples.

Results

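The comparison described here sets rats that were labelled anxiety-susceptible after chronic mild stress against rats labelled insusceptible after the same stress. It uses 8 of the 16 hippocampal arrays of the study, 4 in each group, chosen by the group label alone. All animals were male Sprague-Dawley rats, an outbred laboratory strain, of 250 g when bought. Both groups went through 8 weeks of chronic mild stress, a schedule of small, changing stressors that is used to model depression and anxiety, and both were scanned on the same day. Values of the 4 control arrays, from rats kept without the stress, are given beside every gene read array by array and beside many others. The 4 arrays labelled depression-susceptible enter only the estimate of error. Neither the test that sorted stressed rats into groups nor whether a group's 4 arrays hold RNA of 4 rats is given in the sources used here.

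The hippocampus serves memory and the appraisal of threat, and it is rich in receptors for corticosteroids, the adrenal hormones released under stress. It borders on the ventricles, which hold the choroid plexus, an epithelium that secretes cerebrospinal fluid, and the ependyma, a ciliated lining that moves this fluid. Neurons that have recently fired, and other cells that have been stimulated, switch on immediate early genes within minutes, many of which encode transcription factors.

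Levels are log2 signals relative to the 75th percentile of each array, so 0 is the brightness of that percentile. They compare arrays for 1 probe and do not rank genes against each other. A difference is anxiety-susceptible minus insusceptible on the same log2 scale, so 1 is a 2-fold higher signal in the anxiety-susceptible group. The 4 anxiety-susceptible arrays lay together on slide 3 and the 4 insusceptible arrays on slide 4, so group and slide cannot be told apart. Within each of these slides the spread between arrays was below that between spots of the same probe, and each of the 2 groups was therefore counted as 1 sample. The standard error (SE) and the adjusted p come from limma over 6 samples, which takes its spread from slide 1 and slide 2 within control and within depression-susceptible. They measure the spread between slides, not between animals, and assume that it holds for the slides compared. Local background was 46.0 to 52.4 on the insusceptible arrays and 29.4 to 33.5 on the anxiety-susceptible arrays, the 75th percentile of the signal was 1869 to 1916 and 1630 to 1903, and 62.2% to 66.9% and 66.8% to 70.2% of probes were well above background.

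Of 17885 probes tested, 16 (0.0895%) differed at an adjusted p under 0.05. Of these, 14 were higher in the anxiety-susceptible group (0.0783%) and 2 were lower (0.0112%). A further measure by size alone, chosen after seeing the data, counted genes that differed at least 2-fold. It found 222 of 11344 genes (1.96%), 120 higher (1.06%) and 102 lower (0.899%). Of these, 111 (0.978%) and 94 (0.829%) differed by more than slide 1 and slide 2 differed within control and within depression-susceptible. The same fold separated slide 1 from slide 2 in 1.09% of genes within control and in 0.738% within depression-susceptible. The 2 directions did not hold alike under another background correction, normexp, in which the median of all genes was -0.14 in place of -0.02. Of the 120 higher genes 19 were still 2-fold higher and 47 were on the other side of 0, whereas 67 of the 102 lower genes were still 2-fold lower and 0 crossed. Normexp also lowered genes that neither group measured. Epb42, Spag6, Egr3 and Oprm1, each well above background on 0 arrays of either group, were at -0.74, -0.76, -0.69 and -0.68 under normexp. Their differences in the processed signal were 0.12, -0.12, 0.50 and 0.05. How far this downward shift of dim genes sets the 2 directions apart was not tested. At the adjusted threshold 0 probes were left under normexp, and 0 without any 1 of the 4 control or depression-susceptible slide means, so the tests below rest on those slides and on the background step.

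The widest separation was in genes of the choroid plexus, which stood higher in the anxiety-susceptible group, while both groups lay below control for most of them. Of a list of 30 choroid plexus genes 25 were tested, and 6 of them rose at an adjusted p under 0.05, beside 0.123% of all genes in either direction. By size, 15 of the 25 were at least 2-fold higher and 0 at least 2-fold lower, beside 1.06% and 0.899% of all genes. The median of the list was 1.21 (0.57 under normexp) against -0.02 over all genes. Earlier results of these data had shown this list moving, so its count is no independent evidence of a direction. In tissue as a whole, fewer cells of a type and less RNA per cell cannot be told apart, and how much choroid plexus each dissection carried was not tested.

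Sostdc1, which is secreted and blocks BMP and Wnt signals, read 0.08, 0.14, 0.14 and 0.18 on the anxiety-susceptible arrays, -4.52, -4.53, -4.40 and -4.45 on the insusceptible arrays and 2.01 to 2.15 on the control arrays. The 3 groups did not overlap, and the anxiety-susceptible arrays stood between the other 2. Over all genes, the 4 arrays of either stressed group did not overlap in 48.7%. Sostdc1 rose by 4.61 (SE 0.11, adjusted p = 0.0301 in limma), a 24.4-fold difference, and by 3.20 under normexp. Mfrp, a membrane frizzled-related protein, read 0.70, 0.72, 0.70 and 0.73 in the anxiety-susceptible group, -2.87, -2.91, -2.97 and -2.87 in the insusceptible group and 3.04 to 3.19 in controls. Here too the arrays formed 3 separate groups in the same order. The rise was 3.61 (SE 0.11, adjusted p = 0.0301 in limma), or 12.3-fold, and 2.98 under normexp.

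Transcription of choroid plexus genes depends on the homeodomain factor OTX2, whose class of proteins binds the letters TAATCC. The promoter of Mfrp is shown because Mfrp passed the test and its window holds this motif. The window runs from 250 bases before to 50 bases after the start given by RefSeq on assembly GRCr8 (chr8:53342284-53342583, plus strand), and capitals mark the motif, here on the reverse strand, beginning 99 bases before the start.
Mfrp: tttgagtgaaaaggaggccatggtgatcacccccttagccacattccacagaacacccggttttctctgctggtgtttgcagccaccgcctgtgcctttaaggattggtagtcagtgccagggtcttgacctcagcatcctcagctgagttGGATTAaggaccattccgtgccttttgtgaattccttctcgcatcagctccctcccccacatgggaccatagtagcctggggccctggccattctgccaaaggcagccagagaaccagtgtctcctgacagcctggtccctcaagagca

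TAATCC, read on both strands, occurs in 7.11% of the 27457 promoter windows of this length and in 2 of the 16 windows available for tested choroid plexus genes, those of Mfrp and Ace. A match is a description of the letters and not evidence of binding.

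The channels and junction proteins that let water and ions cross this epithelium followed the same order. Aqp1, its apical water channel, read -1.76, -1.73, -1.80 and -1.83 on the anxiety-susceptible arrays, -4.86, -4.84, -4.80 and -4.72 on the insusceptible arrays and 0.69 to 0.78 on the control arrays. Kcnj13, an inward rectifier potassium channel, read -0.56, -0.73, -0.51 and -0.44 against -3.63, -3.67, -3.57 and -3.56, with controls at 1.1 to 1.19. Cldn2, the claudin that makes these tight junctions leaky to cations, read -1.92, -1.87, -1.86 and -1.88 against -4.98, -5.16, -5.11 and -4.95, with controls at 0.61 to 0.70. In none of these genes did the arrays of 2 groups overlap. Aqp1 rose by 3.02 (SE 0.10, adjusted p = 0.0301), Kcnj13 by 3.05 (SE 0.13, adjusted p = 0.0365) and Cldn2 by 3.17 (SE 0.10, adjusted p = 0.0301), all in limma. Under normexp the same differences were 1.63, 2.07 and 1.58.

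**Figure D1:**
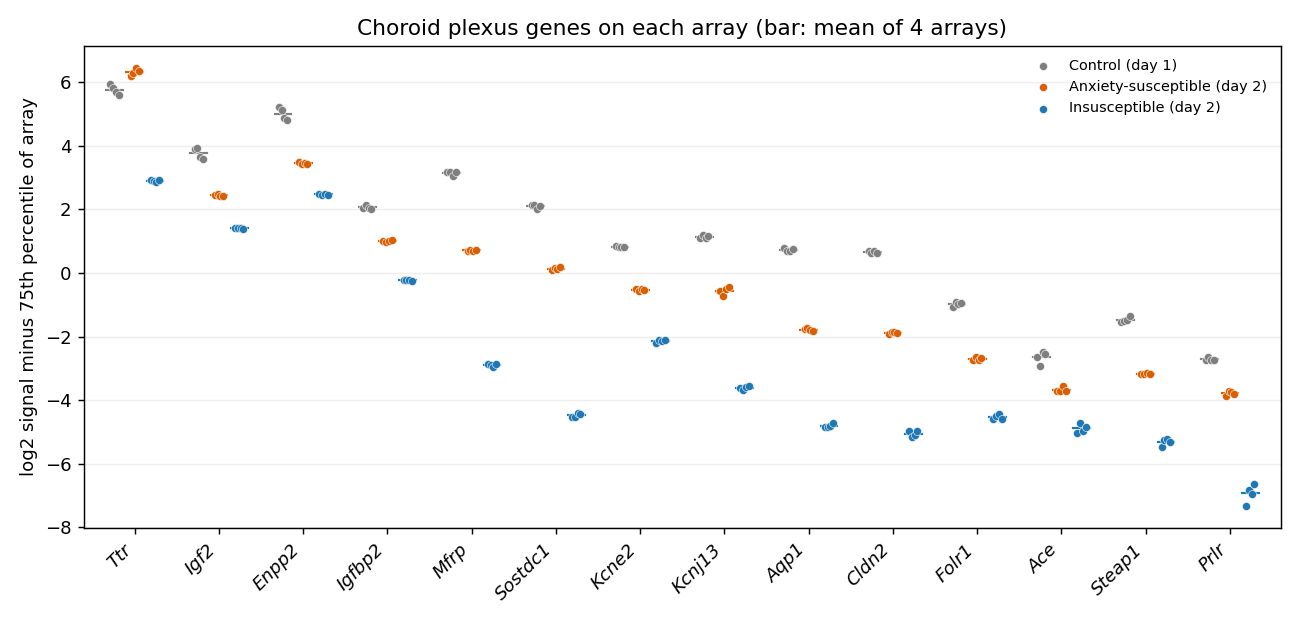
Signal of 14 choroid plexus genes on each control, anxiety-susceptible and insusceptible array, as log2 relative to the 75th percentile of the array on the vertical axis, with 1 point per array and a bar at the mean of 4. In all 14 genes the anxiety-susceptible arrays lie above the insusceptible arrays, and in all but Ttr they lie below the controls.

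Prlr, the prolactin receptor, which is abundant in choroid plexus, was well above background on all 4 anxiety-susceptible arrays and on 0 of the insusceptible arrays. It read -3.88, -3.70, -3.75 and -3.82 against -7.33, -6.81, -6.96 and -6.63, with controls at -2.74 to -2.64. For such genes only a lower bound on the fold is given. It sets a dim array's signal no lower than the dimmest signal well above background on that array. The bound holds within the processed signal only, and under normexp a difference can be smaller than the bound. Prlr rose at least 6.57-fold (adjusted p = 0.0365 in limma), and its difference under normexp was 0.54. Slco1a5, an organic anion transporter that was not on the list, had the largest bound, at least 12.0-fold (adjusted p = 0.0365), with mean levels of -2.89 and -6.85 and a control level of -0.83. Its difference under normexp was 1.16.

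Ttr, the thyroid hormone carrier and the most abundant secreted product of the choroid plexus, broke the order of the other genes. It read 6.21, 6.30, 6.45 and 6.35 on the anxiety-susceptible arrays, 2.91, 2.90, 2.85 and 2.92 on the insusceptible arrays and 5.58 to 5.94 on the control arrays. The anxiety-susceptible arrays thus lay above every control array, not between the other groups. The difference was 3.43 (SE 0.21) with an adjusted p of 0.0565 in limma, just outside the threshold, and it did not shrink under normexp (3.59).

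Other members of the list were apart by smaller amounts, and none of these passed the test. Steap1, a metalloreductase, differed by 2.14 (-3.17 against -5.31, control -1.47), Folr1, a folate receptor that carries folate into cerebrospinal fluid, by 1.82 (-2.70 against -4.53, control -0.98) and Kcne2, a potassium channel subunit, by 1.62 (-0.53 against -2.15, control 0.83). Each had an adjusted p of 0.0565 in limma. The secreted members Igfbp2, a carrier of insulin-like growth factors, and Igf2, a growth factor, differed by 1.23 (control 2.06, adjusted p = 0.086) and 1.04 (control 3.78, adjusted p = 0.24), and Enpp2, the enzyme autotaxin, by 0.98 (control 5.01, adjusted p = 0.24). In the cation channel Trpv4 (1.15) and the peptidase Ace (1.21) the difference depended on the background step, since it was 0.01 and 0.14 under normexp. Slc4a5, a bicarbonate transporter, was well above background on 0 insusceptible arrays and was at least 2.99-fold higher, with a difference of -0.06 under normexp. The lowest members were Lbp, a lipopolysaccharide-binding protein, at -0.33 and Atp2b3, a calcium pump that neurons also express, at -0.09. The control level lay above both groups in 22 of the 25 members, and in all 25 the anxiety-susceptible level was the nearer to control, beside 51.1% of all genes. The controls were scanned on another day, on slides 1 and 2, so this position also carries slide and day.

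The other tissues at the edge of the hippocampus did not move as one with the choroid plexus. Genes of ependymal and ciliated cells, which build motile cilia, tended to be higher: 12 of 13 tested members were above 0, beside 44.8% of all genes, with a median of 0.62 (0.09 under normexp). None passed the test. At least 2-fold higher were 3 members, beside 1.06% of all genes, and none of the 3 stayed so under normexp. Ccdc40, an assembly factor of the ciliary axoneme, read -2.59, -2.48, -2.35 and -2.58 against -4.15, -3.75, -3.68 and -3.70, with controls at -2.65 to -2.48. The anxiety-susceptible arrays overlapped with the controls, and the insusceptible arrays lay below both. The difference was 1.32 (SE 0.15, adjusted p = 0.125 in limma) and 0.51 under normexp. Rsph4a, a radial spoke protein, differed by 1.26 (control -1.10, adjusted p = 0.144) and Dnah1, an axonemal dynein, by 1.12 (control -4.72, adjusted p = 0.13).

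Genes of the meninges and fibroblasts, the connective tissue around the brain and its vessels, went the other way. Of 15 tested members 12 were lower, beside 55.2% of all genes, with a median of -0.67 (-0.67 under normexp). None passed the test, and 3 were at least 2-fold lower, beside 0.899% of all genes. Aldh1a2, which makes retinoic acid in the meninges, read -2.38, -2.32, -2.43 and -2.51 in the anxiety-susceptible group, -0.99, -1.02, -0.91 and -0.96 in the insusceptible group and -2.21 to -1.99 in controls. Here the insusceptible arrays stood apart, above the other 2 groups. The difference was -1.44 (SE 0.13, adjusted p = 0.097 in limma). Slc6a13, a GABA and taurine transporter of the meninges, differed by -1.46 (-3.90 against -2.44, control -4.65, adjusted p = 0.13) and Col3a1, a fibrillar collagen, by -1.12 (-1.71 against -0.59, control -1.31, adjusted p = 0.104). Ptgds, the prostaglandin D synthase of leptomeninges, differed by -0.89 (3.74 against 4.64, control 4.29). Igf2, which meninges and choroid plexus share, was 1 of 3 higher members, at 1.04.

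The summed linear level of all tested members shows the 2 tissues side by side, in units of the 75th percentile of the array. The choroid plexus sum was 102 to 116 on the anxiety-susceptible arrays, 20.9 to 21.3 on the insusceptible arrays and 123 to 149 on the controls. Ttr carried most of that gap, and without it the sum was 28.0 to 28.7, 13.5 to 13.8 and 75.1 to 87.2. For meninges and fibroblasts it was 29.0 to 29.4, 40.0 to 41.2 and 45.9 to 49.1. Without Ptgds that sum was 15.8 to 16.1, 15.6 to 15.9 and 26.2 to 29.8. This remainder holds Igf2, a bright gene that was higher in the anxiety-susceptible group (2.44 against 1.41). Of the 15 members, Ptgds among them, 12 were lower and 3 higher. The near-equal remainder therefore does not mean that only Ptgds differed. Markers of neighbouring brain regions had a sum of 13.8 to 14.5 against 12.9 to 13.3, with a median difference of -0.11 and 0 members at least 2-fold apart. The part of these tissues in the other differences was not tested.

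Cnn1 and Actg2, chosen after their values were seen, are genes of smooth muscle and were lower without passing the test. Cnn1, the actin-binding protein calponin, read -5.35, -5.15, -5.44 and -5.29 against -3.85, -3.59, -3.76 and -3.84, with controls at -4.99 to -4.88. Actg2, a smooth muscle actin, read -6.16, -6.57, -6.46 and -6.04 against -4.36, -4.20, -4.24 and -4.13, with controls at -6.45 to -6.16. In both, the insusceptible arrays were above all others. The differences were -1.55 (SE 0.10) and -2.07 (SE 0.13), each with an adjusted p of 0.0565 in limma. Mfap5, a protein of elastic microfibrils, differed by -1.74 (-5.87 against -4.13, control -5.39, adjusted p = 0.0565). The list of endothelial cells and pericytes, other cells of vessels, had a median of -0.20. Of its 14 tested members 0 were at least 2-fold higher or lower.

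Hemoglobin genes, which mark red blood cells left in the vessels, were lower in the anxiety-susceptible group. The amounts were similar in 5 of the 6 hemoglobin genes tested on the red blood cell list. Of 11 tested members of the red blood cell list 0 passed the test and 5 were at least 2-fold lower, beside 0.123% and 0.899% of all genes. All 5 are hemoglobin genes. The median of the list was -0.41 (-0.84 under normexp), and -1.36 over the 7 members well above background on all 8 arrays, a choice made after seeing the data. Hbb-b1, a beta globin, read -1.76, -1.90, -1.83 and -1.80 on the anxiety-susceptible arrays, -0.34, -0.33, -0.30 and -0.31 on the insusceptible arrays and -1.31 to -1.29 on the control arrays. The groups did not overlap, and the controls lay between them, nearer to the anxiety-susceptible arrays. The difference was -1.50 (SE 0.10, adjusted p = 0.0565 in limma) and -1.40 under normexp. Hbb-bs, Hbb and the alpha globin Hba-a1 differed by -1.51, -1.36 and -1.54 (adjusted p = 0.0662, 0.117 and 0.097). Hbe2, an embryonic globin, differed by -0.17 (-5.41 against -5.24, control -6.64). Globin genes are close in sequence, so their probes may read the same transcripts and are not separate evidence. Members that are not globins differed less and in both directions. The heme synthesis enzyme Alas2 was at -0.41, the globin chaperone Ahsp at -0.03 and the erythroid factor Klf1 at -0.07, while the erythroid factor Gata1 was at 0.63 (-0.19 under normexp). Epb42, a protein of the red cell membrane, failed the scanner's background test on each of the 8 arrays. The summed level of the list was 1.01 to 1.07 against 2.10 to 2.15, with controls at 1.26 to 1.28.

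Immediate early genes were higher in part. Of 22 tested members 1 passed the test and 5 were at least 2-fold higher, beside 0.123% and 1.06% of all genes, with 0 at least 2-fold lower and a median of 0.38 (0.28 under normexp). Atf3, a stress-induced transcription factor, read -1.54, -1.57, -1.63 and -1.38 on the anxiety-susceptible arrays, -4.04, -4.08, -4.12 and -3.94 on the insusceptible arrays and -3.17 to -3.13 on the control arrays. The anxiety-susceptible arrays were above both other groups, and the insusceptible arrays were below both. Atf3 rose by 2.52 (SE 0.11, adjusted p = 0.0365 in limma), or 5.73-fold, and by 1.5 under normexp.

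Fos, the activity marker that pairs with Jun to form AP-1, read -3.16, -3.22, -3.17 and -3.15 against -4.56, -4.56, -4.53 and -4.46, with controls at -4.37 to -4.12. No groups overlapped, yet the signal was dim. Its difference of 1.36 (SE 0.17, adjusted p = 0.141 in limma) was 0.32 under normexp. Klf4, a zinc finger factor that vessels also induce, read -0.22, -0.17, -0.14 and -0.15 against -1.17, -1.29, -1.26 and -1.28, with controls at -0.86 to -0.75. The controls lay between the stressed groups, and the difference of 1.08 (SE 0.12, adjusted p = 0.125) was nearly as large under normexp (0.97). Egr2, a zinc finger factor, and Sik1, a kinase that restrains CREB target genes, differed by 1.02 (-1.61 against -2.63, control -1.85) and 1.05 (-3.67 against -4.72, control -7.56), and by 0.52 and 0.05 under normexp.

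Ier2, a nuclear protein of the early response, stood just under 2-fold at 1.0 (-0.29 against -1.29, control -0.78, adjusted p = 0.106). Dusp1, a phosphatase that switches off MAP kinases and is also induced by glucocorticoids, differed by 0.83 (1.11 against 0.28, control 1.09). The neuronal activity genes Arc and Egr1 were close together: Arc, which regulates AMPA receptor uptake, differed by 0.23 (adjusted p = 0.746) and Egr1 by -0.12 (adjusted p = 0.942). Nr4a1, Nr4a2 and Nr4a3, orphan nuclear receptors of this response, were at 0.36, -0.28 and -0.19. Further genes of this kind lay outside the list. Ccn1, a matrix protein induced by serum and stretch, read -2.53, -2.67, -2.40 and -2.53 against -5.17, -5.12, -5.11 and -5.29, with controls at -4.88 to -4.64, a difference of 2.64 (SE 0.18, adjusted p = 0.0565) that was 1.08 under normexp. Apold1, an early response gene of endothelium, differed by 1.54 (-1.50 against -3.04, control -1.40, adjusted p = 0.117).

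The promoters of Ier2 and Egr2 are shown because they hold the elements through which this response is classically switched on: TGACGTCA, the full cAMP response element bound by CREB, and the CArG box, bound by serum response factor. Both windows run from 250 bases before to 50 after the RefSeq start on GRCr8, Ier2 at chr19:40399123-40399422 on the plus strand and Egr2 at chr20:21054392-21054691 on the minus strand. Capitals mark TGACGTCA in Ier2, beginning 66 bases before the start, and the CArG box in Egr2, beginning 83 bases before it.
Ier2: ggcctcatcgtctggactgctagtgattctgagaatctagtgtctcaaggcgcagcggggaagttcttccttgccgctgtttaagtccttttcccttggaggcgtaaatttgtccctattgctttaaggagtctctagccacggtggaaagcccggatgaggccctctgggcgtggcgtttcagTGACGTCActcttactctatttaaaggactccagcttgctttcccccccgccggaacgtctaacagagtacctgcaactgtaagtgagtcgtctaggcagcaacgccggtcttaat
Egr2: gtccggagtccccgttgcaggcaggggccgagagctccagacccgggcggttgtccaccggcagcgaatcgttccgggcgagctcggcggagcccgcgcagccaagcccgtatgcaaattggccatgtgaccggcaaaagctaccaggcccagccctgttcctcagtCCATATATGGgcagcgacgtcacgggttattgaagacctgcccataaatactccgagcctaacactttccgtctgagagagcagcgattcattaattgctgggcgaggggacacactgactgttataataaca

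Among 15 windows available for tested immediate early genes, TGACGTCA, which reads the same on both strands, occurs in 3 (Ier2, Btg2 and Dusp1), against 1.91% of the 27457 windows. The CArG box, also the same on both strands, occurs in 2 (Egr1 and Egr2), against 1.64%. No window of these genes held both motifs, and a match is not a measure of factor activity. Egr1 holds the CArG box and differed by -0.12, while Egr2 holds it and differed by 1.02.

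**Figure D2:**
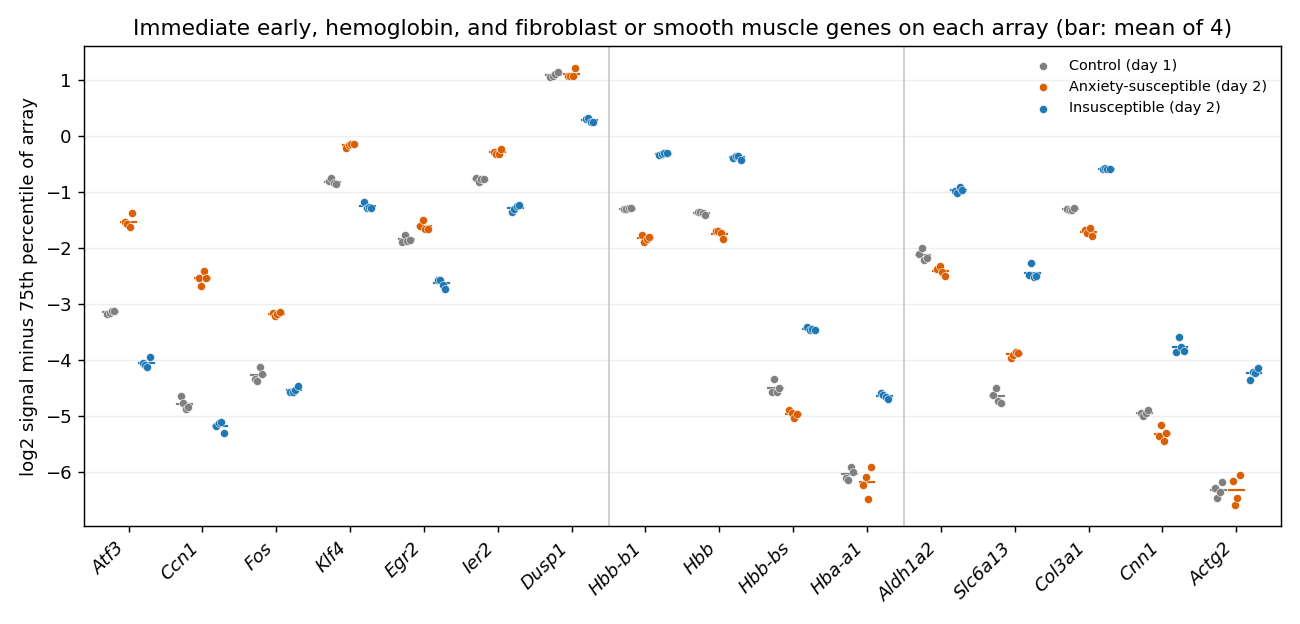
Signal of immediate early genes (left), hemoglobin genes (middle) and fibroblast or smooth muscle genes (right) on each array, as log2 relative to the 75th percentile of the array, with 1 point per array and a bar at the mean of 4. The genes are a selection, and Ccn1 is not on the immediate early list. The immediate early genes plotted lie higher on the anxiety-susceptible than on the insusceptible arrays. Of the 22 tested list members 17 were higher and 5 lower. The other genes plotted lie higher on the insusceptible arrays than on both other groups.

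The 2 probes that fell at an adjusted p under 0.05 belong to Aox1, which is on none of the lists, and Ifit1, on the list of interferon and antigen presentation genes. Aox1, an aldehyde oxidase, read -1.49, -1.52, -1.46 and -1.66 on the anxiety-susceptible arrays, 0.70, 0.77, 0.77 and 0.79 on the insusceptible arrays and -0.60 to -0.54 on the control arrays. The controls lay between groups that did not overlap. Aox1 fell by 2.29 on the log2 scale (SE 0.10, adjusted p = 0.0365 in limma), 4.89-fold, and stood at -2.13 under normexp. Ifit1, an antiviral protein induced by interferon, read -6.49, -6.20, -6.70 and -6.53 against -3.56, -3.58, -3.61 and -3.41, with controls at -4.80 to -4.63. It was well above background on 1 of the 4 anxiety-susceptible arrays. It fell by 2.94 (SE 0.11, adjusted p = 0.0365 in limma) and was at -1.69 under normexp.

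Ifit1 stood alone among interferon and antigen presentation genes. Of 35 tested members 1 fell and 0 rose at the adjusted threshold, beside 0.123% of all genes in either direction, and the median was -0.03. Ifi27, another interferon-induced gene, was higher by 1.46 (2.33 against 0.87, control 2.73, adjusted p = 0.0662), while Irf7, the factor that amplifies interferon production, was at -0.72 (adjusted p = 0.208). Ifit2 and Ifit3, relatives of Ifit1, were at -0.06 and -0.04 (adjusted p = 0.914 and 0.966).

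Fam111a, a nuclear protease, had the largest negative difference among genes well above background on all 8 arrays. It read -4.56, -4.22, -4.53 and -4.64 on the anxiety-susceptible arrays, -0.74, -0.79, -0.77 and -0.75 on the insusceptible arrays and -0.80 to -0.47 on the control arrays. The insusceptible arrays lay within the range of the controls, and the anxiety-susceptible arrays stood apart. The difference was -3.72 (SE 0.23, adjusted p = 0.0565 in limma) and -3.0 under normexp. Bcl9l, a coactivator of Wnt signalling, showed the same layout at a smaller size, with -3.13 against -1.65 and a control level of -1.52 (difference -1.47, adjusted p = 0.064). So did Ndufa7, a subunit of respiratory complex I, with -2.99 against -1.76 and a control level of -1.78 (difference -1.23, adjusted p = 0.181). It was the 1 member at least 2-fold apart among 66 tested genes of oxidative phosphorylation, whose median was 0.02.

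In contrast, Lrg1, a secreted leucine-rich glycoprotein induced in inflammation, read -2.22, -2.35, -2.35 and -2.32 against -0.75, -0.67, -0.76 and -0.70, with controls at -2.53 to -2.11. Here the anxiety-susceptible arrays lay within the control range and the insusceptible arrays stood apart. The difference was -1.59 (SE 0.21, adjusted p = 0.153). Ptprcap, a partner of the leukocyte phosphatase CD45, and Fcrl2, an Fc receptor-like protein of lymphocytes, differed by -1.77 (control -3.85, adjusted p = 0.0565) and -1.77 (control -3.20, adjusted p = 0.064). Across all genes at least 2-fold lower, the anxiety-susceptible level was the nearer to control in 65.7%, and across those at least 2-fold higher in 65.5%, beside 51.1% of all genes.

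The other genes that rose were Scgb1c1, Cnmd, Vegfb and Pon1. Scgb1c1, a secretoglobin, read -0.94, -0.95, -1.01 and -0.92 against -3.16, -3.26, -3.14 and -3.13, with controls at 0.50 to 0.54. Its arrays kept the order of the choroid plexus genes, and it rose by 2.22 (SE 0.11, adjusted p = 0.0426 in limma; 1.5 under normexp). Cnmd, the cartilage protein chondromodulin, Vegfb, a vascular growth factor, and Pon1, a paraoxonase, were well above background on all 4 anxiety-susceptible arrays and on 0 insusceptible arrays. They rose at least 7.07-fold, 6.95-fold and 5.09-fold (adjusted p = 0.0365, 0.042 and 0.0301), with mean levels of -3.77 against -7.20, -3.61 against -6.51 and -4.24 against -7.92. Control levels were -4.53, -2.87 and -2.95. These are dim signals, and under normexp the differences were 0.53, 0.62 and 0.36. A further 2 probes that rose have targets without a gene symbol here.

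Being dim on 1 slide was itself uneven: 64 genes were well above background on all 4 anxiety-susceptible arrays and 0 insusceptible arrays, and 2 genes were the reverse. These 2 were Defb1, an antimicrobial defensin, at least 5.15-fold lower (adjusted p = 0.0565), and Polq, a DNA repair polymerase, at least 4.93-fold lower (adjusted p = 0.293). Cltrn, a renal and islet membrane protein, was at least 9.61-fold higher (adjusted p = 0.0565), and 0.85 under normexp. The higher background of the insusceptible arrays, given above, moves with this count, and its part was not tested.

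**Figure D3:**
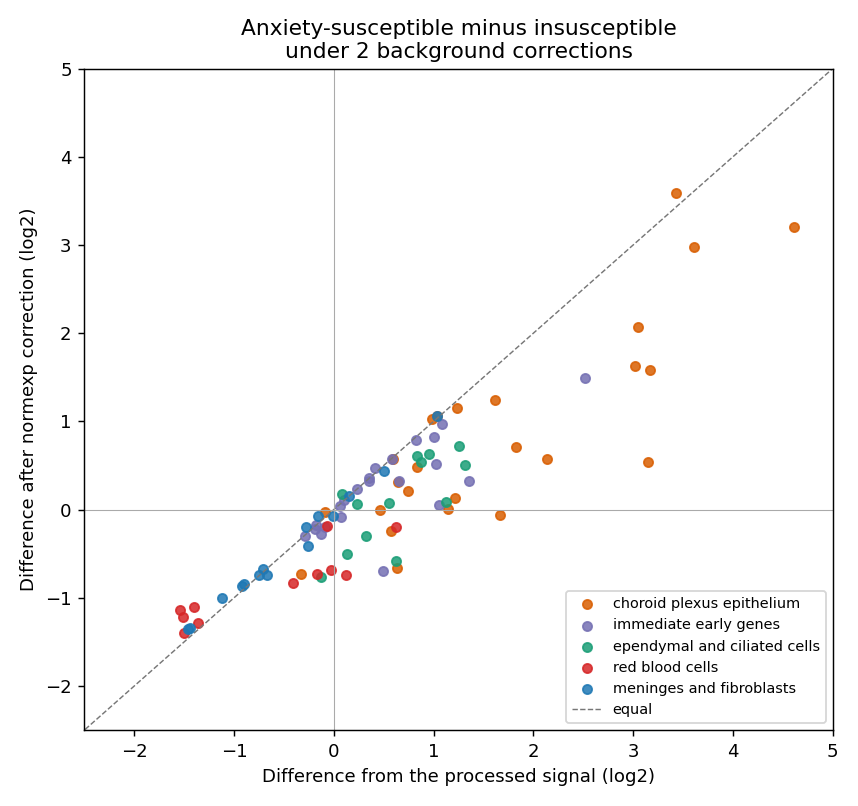
Difference between the groups for members of 5 gene lists, with the value from the scanner's processed signal on the horizontal axis and the value after normexp background correction on the vertical axis, both in log2, and 1 point per gene. Ttr, the fibroblast genes and the hemoglobin genes Hbb and Hbb-b1 lie near the line of equal values. Hba-a1, Hba-a2 and Hbb-bs lie above that line, and Hbe2 lies below it (-0.17, and -0.73 under normexp). Most choroid plexus, ciliated and dim immediate early genes also lie below it.

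Genes of inhibitory transmission, which benzodiazepine anxiolytics enhance, mostly showed small differences in RNA signal, and transmission itself was not measured. Of 23 tested genes of GABA synthesis, transport and receptors 0 passed the test, with a median of -0.13, and Slc6a13, also on the meningeal list, was the 1 member at least 2-fold apart. Gad1, the main GABA-synthesizing enzyme, read 4.23, 4.27, 4.30 and 4.26 against 4.13, 4.21, 4.19 and 4.22, with controls at 3.80 to 4.02. The 2 stressed groups almost touched, and the difference of 0.08 (SE 0.14, adjusted p = 0.913) was smaller than its error. Gad2, the synaptic form, differed by -0.21 (adjusted p = 0.573) and the vesicular transporter Slc32a1 by 0.28 (adjusted p = 0.723). The receptor subunits Gabra4 and Gabrg1 were at -0.41 (-0.66 against -0.25, control 0.58) and -0.31 (-1.20 against -0.89, control 0.10), with adjusted p of 0.405 and 0.532. Gabbr1, a subunit of the metabotropic GABA-B receptor, was at 0.73, a size that slide 1 and slide 2 also showed within control (0.74).

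Peptides and calcium-binding proteins of interneurons gave 0 of 24 members past the test and a median of 0.12. Npy, a peptide with anxiolytic action, differed by 0.12 (2.64 against 2.52, control 3.90, adjusted p = 0.863) and its arrays overlapped. Sst, somatostatin, was at 0.45 (4.37 against 3.92, control 4.46, adjusted p = 0.449) and Pvalb, parvalbumin, at -0.22 (2.52 against 2.73, control 2.83, adjusted p = 0.604). The somatostatin receptor Sstr1 and the tachykinin precursor Tac1 were at 0.69 (adjusted p = 0.232) and 0.50 (adjusted p = 0.284), and Pdyn, the dynorphin precursor, at -0.66 (adjusted p = 0.208), with 1 anxiety-susceptible array at 1.65 and the others at 2.61 to 2.69.

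Genes of the corticosteroid system showed small differences in RNA signal. Of 12 tested receptors and members of the CRH system 0 passed the test, with a median of -0.02. Nr3c1, the glucocorticoid receptor, read 1.99, 2.03, 2.01 and 2.07 against 2.09, 2.12, 2.10 and 2.08, with controls at 2.16 to 2.36. The groups are side by side, and the difference of -0.07 (SE 0.13, adjusted p = 0.91) was within its error. Nr3c2, the mineralocorticoid receptor, was at 0.07 (control 3.19, adjusted p = 0.919 in limma). Crh was at 0.21 (-2.61 against -2.82, control -2.28, adjusted p = 0.81) and its receptor Crhr1 at 0.25 (-5.32 against -5.57, control -5.59, adjusted p = 0.706). Both changed sign under normexp, to -0.19 and -0.58. Fkbp5, a glucocorticoid-induced cochaperone that lowers receptor sensitivity, read 2.22, 2.17, 2.19 and 2.07 against 2.48, 2.47, 2.46 and 2.46, with controls at 1.93 to 2.08. The insusceptible arrays were above the anxiety-susceptible arrays, and the difference of -0.30 (SE 0.15) had an adjusted p of 0.574.

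Between the 2 stressed groups, genes that glucocorticoids induce, Fkbp5 among them, leaned to the same side as Fkbp5. Of 22 tested members 18 were lower, beside 55.2% of all genes, with a median of -0.24. None passed, and Pdk4, a kinase that spares glucose, was the 1 member at least 2-fold lower (-1.23, -6.37 against -5.14, control -4.88, adjusted p = 0.302). Sgk1, a serum- and glucocorticoid-induced kinase, was at -0.55 (2.15 against 2.70, control 3.18, adjusted p = 0.499 in limma). Klf9, a factor that dampens plasticity, was at -0.54 (-0.77 against -0.23, control 0.23, adjusted p = 0.333, 1 control spot left out). Tsc22d3, the leucine zipper GILZ, was at -0.42 (-0.24 against 0.18, control 0.69, adjusted p = 0.3). In these genes and Pdk4 the control level lay above both groups, but in Fkbp5 it lay below both. Over the 22 members the control level was above both groups in 9, between them in 4 and below both in 9. Dusp1, also an immediate early gene, was the highest at 0.83.

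Bdnf, the neurotrophin that sustains hippocampal synapses, read -0.35, -0.46, -0.43 and -0.44 against -0.13, -0.10, -0.10 and -0.08, with controls at 0.70 to 0.98. Both stressed groups were below every control array and did not overlap with each other. Their difference of -0.32 (SE 0.18) had an adjusted p of 0.647, and slide 1 and slide 2 differed by -0.19 within control and -0.24 within depression-susceptible. Of the 11 tested neurotrophin genes and receptors 0 passed. Htr2c, a serotonin receptor that choroid plexus also expresses strongly, was at 0.63 (2.68 against 2.05, control 2.94, adjusted p = 0.238), and 0 of 29 tested monoamine genes passed.

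**Figure D4:**
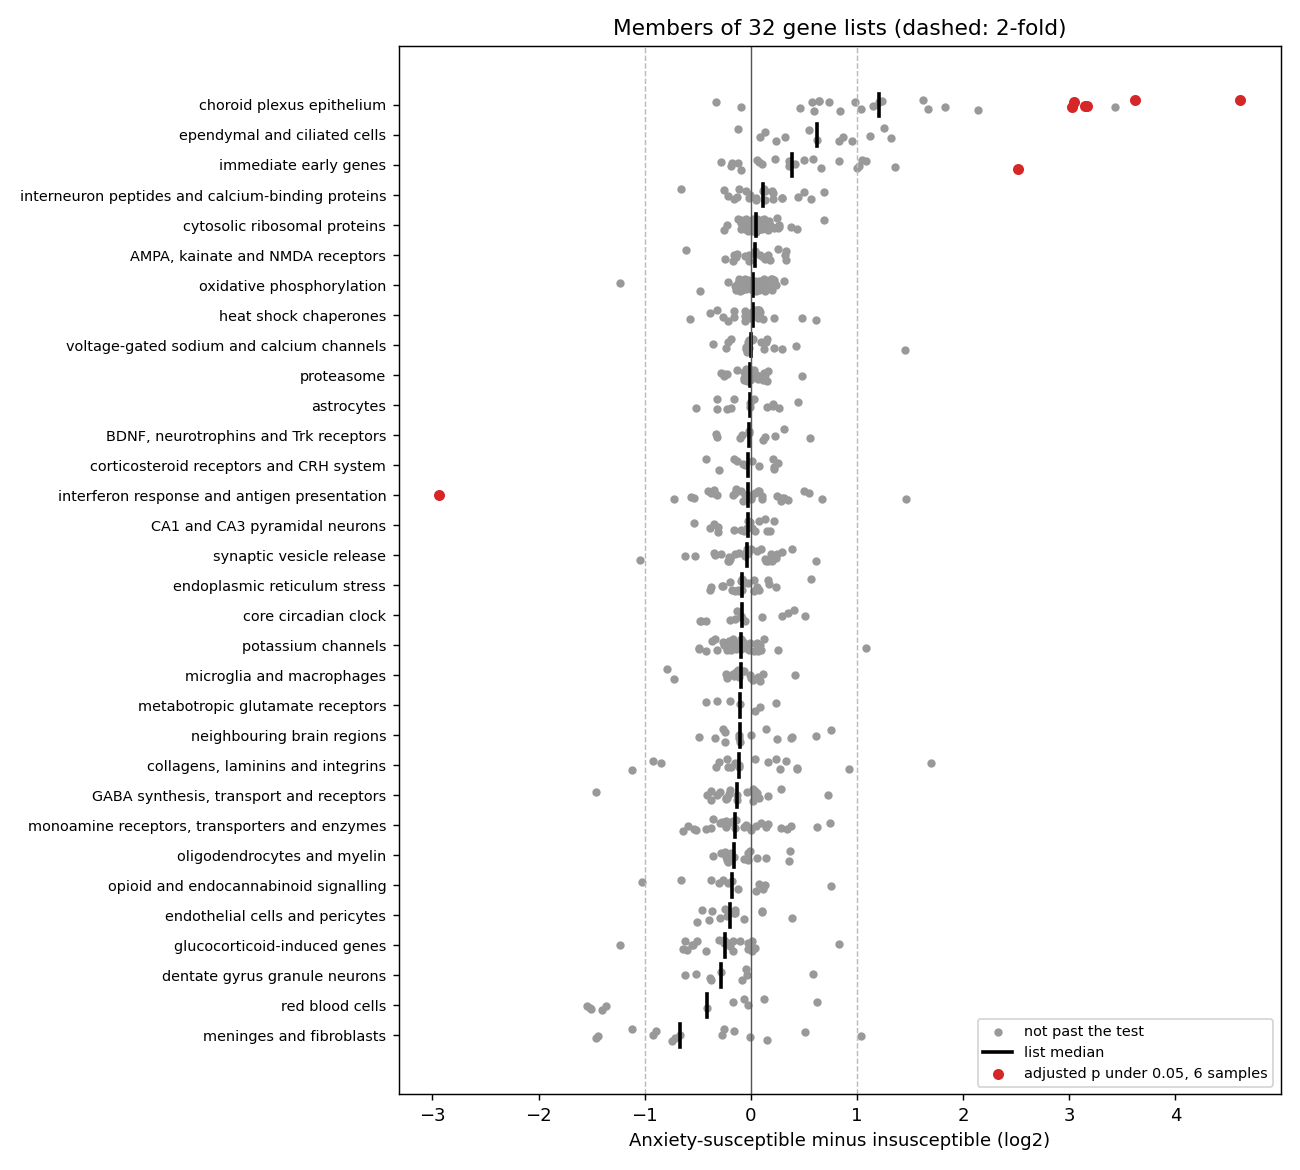
Difference between the groups for every tested member of 32 gene lists, in log2 on the horizontal axis, with lists ordered by their median (black bar), genes past the test in red and dashed lines at 2-fold. Choroid plexus, ciliated and immediate early genes lie at the higher end, red blood cell and meningeal genes at the lower end, and most other lists around 0.

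The remaining lists had medians between -0.28 and 0.05, and 0 of their members passed the test. They cover microglia (median -0.09), astrocytes (median -0.01), oligodendrocytes (median -0.16), endothelium and hippocampal subfields. Also among them are glutamate receptors, opioids, ion channels, vesicle release, chaperones, clock genes, ribosomes and the proteasome. The lowest of these medians, -0.28 (-0.51 under normexp), was that of dentate gyrus granule neurons, of which 8 of 9 tested members were lower, beside 55.2% of all genes. The microglial gene Aif1 was at -0.16 (control 1.57), the astrocyte gene Gfap at 0.21 (control 5.39) and the myelin gene Mbp at 0.37 (control 6.12). Their adjusted p in limma were 0.755, 0.797 and 0.769. Mbp was the highest member of its list, of which 13 of 17 tested members were lower. Of the 15 tested astrocyte genes 8 were lower, and Gfap was at -0.01 under quantile normalization. Single members stood out by size: Kcnd3, an A-type potassium channel, was at 1.09 (0.97 against -0.12, control 0.29, adjusted p = 0.1), Itgb6, an epithelial integrin, at 1.70 (-1.49 against -3.18, control -1.0, adjusted p = 0.0565), and Syn3, a synapsin, at -1.04 (-5.36 against -4.32, control -4.46, adjusted p = 0.118). Daglb, a lipase that makes an endocannabinoid, was at -1.02, while slides 1 and 2 differed by -1.23 within control.

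Probes for RefSeq non-coding RNAs were treated apart, because slides differed in them. Of 1101 tested, 133 were at least 2-fold higher (12.1%) and 6 lower (0.545%), against 1.06% and 0.89% of messenger RNA probes, and 0 of the 133 passed the test. Within control, 174 non-coding probes were at least 2-fold brighter on slide 1 than on slide 2 and 2 were dimmer. Of the 133, 86 were also at least 2-fold higher on slide 1 than on slide 2 in both control and depression-susceptible, where these slides hold the same group. Over the 133, the median difference between slides within control was 1.55, and between the groups 1.36. Across probes, the group difference correlated with the control slide difference at 0.78 for 1094 non-coding probes and at 0.14 for 12362 messenger RNA probes, each computed on arrays of different slides with no array in common. A slide difference of this kind was therefore of the size of the group difference in non-coding probes, and 45 of the 133 exceeded it.

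**Figure D5:**
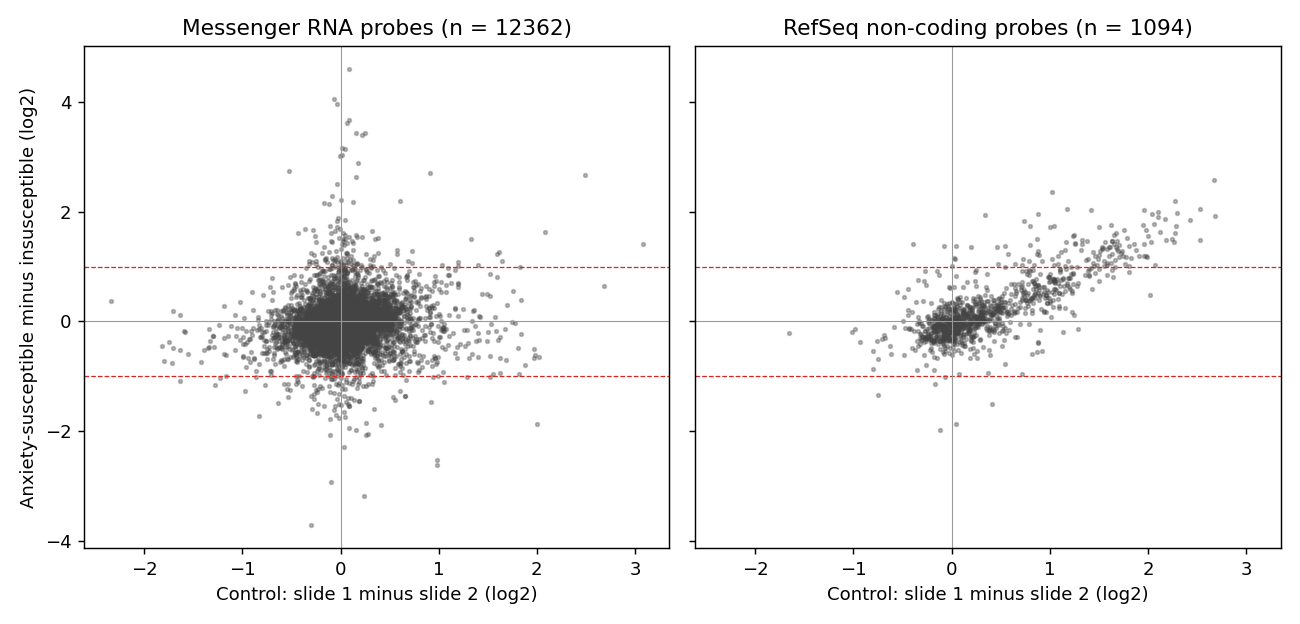
Difference between the groups (vertical, log2) against the difference between slides 1 and 2 within control (horizontal, log2), with 1 point per probe, for messenger RNA probes (left) and RefSeq non-coding probes (right), and dashed lines at 2-fold. Non-coding probes spread along a rising band, with a correlation of 0.78, while the messenger RNA probes with the largest group differences lie near 0 on the horizontal axis.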

How the data were processed

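Hippocampal RNA was freed of ribosomal RNA, amplified with random primers and labelled with Cy3, per the labels' protocols, and hybridised to 1-colour Agilent arrays. The deposited spot values are intensity readings of Agilent Feature Extraction 11.0.1.1, already background-subtracted per the file headers. The deposited value table holds log2 values that share their quantiles between arrays, and served as an alternative.

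Control and flagged spots were left out, spots of a probe were averaged, and each array's 75th percentile was subtracted from its log2 processed signals. Of 24684 probes, 17885 passed the scanner's test against background on 4 or more of the 16 arrays and were tested (11344 symbols, brightest probe each). Symbols came from a RefSeq table of GRCr8, which named 14274 of 15323 messenger RNA probes, and the array's own build gave no positions used here. The number of arrays limits the precision, and 0 spots were saturated.

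In 1487 probes with 3 spots, the variance between arrays of a group on a slide was set against the spot variance of a mean of 3. The ratio was 0.705 (anxiety-susceptible) and 0.80 (insusceptible). Arrays of a group on a slide were averaged to 6 samples: 2 control, 2 depression-susceptible and 1 of each group compared. limma 3.58.1 in R 4.3.3 fitted group means with 2 residual degrees of freedom, two-sided moderated tests and Benjamini-Hochberg adjustment over the 17885 probes. Named genes were the largest differences past the test that kept their sign under other scalings, the largest lower bounds, the largest list members past the test and 35 fixed genes (32 tested). After seeing the data, the largest differences of at least 2-fold beyond the slide differences list members of at least 2-fold, and further list members given with their values were added. The members and lists were chosen with earlier results of these data known.

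Alternatives changed the samples, scaling, background correction, filter, blocks and arrays. normexp used the median spot signal with an offset of 50. The fits were tested on simulated data. Python 3.11.15, numpy 2.4.6, pandas 2.3.3 and matplotlib 3.10.9 made the plots.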

Additional observations from a re-analysis of the deposited data

Results flagged for a closer look

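In 11 of 216 groups of 4 arrays examined, 1 array stood far from the other 3, and chance flags about 1 in 20 such groups. In the anxiety-susceptible group these were Defb1 at -8.75 (others -8.05 to -8.01), Npy at 2.53 (others 2.66 to 2.69), Tbxt at -2.58 (others -2.68 to -2.67), Glycam1 at -2.26 (others -1.97 to -1.91), Otop3 at -6.35 (others -5.83 to -5.75) and Ace at -3.55 (others -3.73 to -3.71). In the insusceptible group they were Gabra4 at -0.23 (others all at -0.26), Htr2c at 2.10 (others 2.03 to 2.04), Slc6a13 at -2.26 (others -2.52 to -2.48), Trpv4 at -4.39 (others -5.31 to -5.16) and Ccdc40 at -4.15 (others -3.75 to -3.68). All are log2 levels. The array came from replicate 4 in Defb1, Tbxt, Otop3 and Trpv4, and from replicate 1 in Npy, Gabra4, Htr2c and Ccdc40.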

How the results depend on the processing

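The 16 probes past the threshold became 0 under normexp (55 at an unadjusted p under 0.05 in limma) and 0 with no filter on dim probes (2917 unadjusted). Leaving out 1 array or 1 slide mean gave 0 to 18: 11 to 18 without 1 array, and 0 (1340 to 1605 unadjusted) without any 1 of the 4 control or depression-susceptible slide means, which leaves 1 residual degree of freedom. Larger counts came from quantile normalization (64, 44 higher and 20 lower), the authors' deposited value table (48, 37 and 11), a mean-variance trend (62), a filter on all 8 arrays (28), and from counting arrays as samples: 6433 over 16 arrays, 9617 over 8 arrays and 1905 with slide as a random block. All 16 were among the calls in each of these except the filter on all 8 arrays, which kept 8. Choroid plexus genes past the threshold numbered 6, and 0 under normexp and with no filter, 0 to 6 leaving out 1 array or slide mean, 11 with quantile normalization or a trend, 10 in the value table, and 22, 23 and 20 with 16 arrays, 8 arrays and slide as a random block.

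The replicate block, with 16 arrays as samples, gave 5549 probes and 22 choroid plexus genes. Deviations of same-numbered arrays from their group means had mean correlations of -0.09 to -0.055 over all pairs of groups. Same-numbered control and depression-susceptible arrays lay on different slides, so the slide layout enters these means. Between the 2 groups compared the correlations were 0.07, 0.02, 0.06 and -0.03 for replicates 1 to 4. Whether equal numbers mark a pairing cannot be told from these values.

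None of 5 list medians (choroid plexus, immediate early, red blood cell, meningeal, ciliated) changed sign under these alternatives. Differences of dim signals rest on the background correction.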
